A study of Rattus norvegicus with 10 samples.

Results

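The genes described here encode the machinery that divides and joins mitochondria: the fission genes Dnm1l, Fis1, Mff, Mief1 and Mief2, the fusion genes Mfn1, Mfn2 and Opa1, and Oma1 and Yme1l1, the proteases that cut the OPA1 protein. Members were the probesets whose platform annotation carries one of these 10 symbols and no other. Of the 10 genes, 9 had a probeset, 1 each, among the 15037 named genes of the array, and no other probeset carried the same values. Mief2 had no probeset annotated with its symbol alone and was not analysed here. RNA came from cultured cells of the nucleus pulposus, the soft centre of the intervertebral disc, of male Sprague Dawley rats 3 to 4 months old. In the ShBNIP3 group (5 arrays, numbered 6 to 10) the cells carried a lentivirus with a short hairpin RNA against Bnip3, a mitophagy receptor of the outer mitochondrial membrane. In the ShCtrl group (5 arrays, numbered 1 to 5) they carried a control hairpin in the vector pLKO.1. All cells were thus transduced, and RNA was collected 4 days later. The labels do not say how many hairpins were used, whether transduced cells were selected, or whether replicate arrays stand for different cultures or animals, so p-values here measure sample-to-sample spread alone, and that spread may be technical.

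Mitochondria in most cells form a network that is shaped by opposing membrane reactions. For fission, the dynamin-related GTPase DRP1, encoded by Dnm1l, is recruited from the cytosol by receptors on the outer membrane, MFF, FIS1 and the MIEF proteins, and constricts the organelle. For fusion, the mitofusins MFN1 and MFN2 join outer membranes and OPA1 joins inner membranes, while the inner membrane proteases OMA1 and YME1L1 cut OPA1 and set the balance of its long and short forms. Fragments split off by fission can be delivered to autophagosomes by mitophagy receptors such as BNIP3.

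Values are log2 expression levels as the authors normalized them, and differences are ShBNIP3 minus ShCtrl. A gene is said to rise or fall where its adjusted p, from limma over all 23188 probesets tested with Benjamini-Hochberg adjustment, was under 0.05. Bnip3 ranged from 10.59 to 12.68 in ShBNIP3 and from 13.94 to 15.97 in ShCtrl, without overlap, a log2 difference of -3.21 (SE 0.40, limma adjusted p = 0.00020). ShBNIP3 array 10 and ShCtrl array 4 stood apart, with a mean Pearson correlation with the other arrays of their group of 0.986 and 0.983, against 0.992 for each of the other 8 arrays. Bnip3 was highest of its group on both, 1.61 above the other ShBNIP3 arrays on array 10 and 1.71 above the other ShCtrl arrays on array 4. Without both arrays the Bnip3 difference was -3.19. Of 10 measured markers of nucleus pulposus cells, 6 lay under the background level on every array, among them the keratins Krt8, Krt18 and Krt19 and the notochord factor Tbxt. The cartilage genes Acan and Col2a1 and the carbonic anhydrase Car3 were above it on every array, and Cd24 on 7 arrays. Car3 and Col2a1 fell, by 1.29 and 0.67 on the log2 scale. Acan and Cd24 were not called, with differences of -0.90 and -0.16 (limma adjusted p = 0.19 and 0.77). The log2 of the summed linear level of this list was 12.2 to 13.8 in ShBNIP3 and 13.4 to 14.5 in ShCtrl. Of 6 measured annulus fibrosus and fibroblast markers, 4 fell (Col1a1, Col1a2, Fbln1 and Thy1), and their summed level on the same scale was 19.1 to 19.3 in ShBNIP3 and 19.5 to 19.6 in ShCtrl. All 6 endothelial, 5 skeletal muscle and 3 erythroid markers measured were at background throughout, as were 7 of 9 macrophage and leukocyte markers. The other 2, Cd68 and Cd14, rose, as did Cd53 within the background range. The summed level of that list was 11.9 to 13.2 in ShBNIP3 and 11.0 to 11.7 in ShCtrl. Most of that sum was Cd14 alone, at 11.73 to 13.14 in ShBNIP3 and 10.83 to 11.57 in ShCtrl. The part of these shifts in the results below was not tested, and in such bulk RNA fewer cells of a type and less RNA per cell cannot be told apart.

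The promoters of Dnm1l, Mfn1 and Yme1l1 are shown first, because all ShBNIP3 values of these 3 genes lay above all their ShCtrl values. Each runs 5′ to 3′ along the gene, with 250 bases before and 50 after the annotated start, from RefSeq on build GRCr8, at chr11:98085147-98085446 (plus strand) for Dnm1l, chr2:117241508-117241807 (plus strand) for Mfn1 and chr17:90195837-90196136 (plus strand) for Yme1l1. Capitals mark matches on either strand to CCGGAAGT, a site bound by ETS factors, to ACGTG and to CCAAT, the CCAAT box. ACGTG is 1 form of the core of the hypoxia response element, and the form GCGTG was not searched. Shorter forms of the ETS site were not searched either. No base lay in more than 1 match.
Dnm1l: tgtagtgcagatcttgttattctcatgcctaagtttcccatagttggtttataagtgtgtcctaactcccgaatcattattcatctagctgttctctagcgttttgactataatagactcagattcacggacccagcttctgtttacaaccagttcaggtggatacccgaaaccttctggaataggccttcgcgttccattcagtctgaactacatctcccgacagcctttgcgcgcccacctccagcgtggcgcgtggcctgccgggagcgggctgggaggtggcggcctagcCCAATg
Mfn1: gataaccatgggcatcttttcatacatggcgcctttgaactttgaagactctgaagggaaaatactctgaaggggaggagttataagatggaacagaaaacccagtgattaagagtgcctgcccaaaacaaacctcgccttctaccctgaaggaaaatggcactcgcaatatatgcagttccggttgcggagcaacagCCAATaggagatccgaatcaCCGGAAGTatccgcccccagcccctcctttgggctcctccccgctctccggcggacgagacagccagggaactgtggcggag
Yme1l1: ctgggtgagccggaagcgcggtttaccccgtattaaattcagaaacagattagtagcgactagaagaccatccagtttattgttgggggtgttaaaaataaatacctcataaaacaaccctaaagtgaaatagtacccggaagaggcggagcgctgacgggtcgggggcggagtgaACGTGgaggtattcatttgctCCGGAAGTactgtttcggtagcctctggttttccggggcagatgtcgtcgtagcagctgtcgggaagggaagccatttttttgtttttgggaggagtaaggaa

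The ETS site CCGGAAGT was found in the promoters of Mfn1 and Yme1l1, and also of Fis1 and Mief1. That is 4 of the 8 measured members with an entry in the RefSeq promoter table, which holds Fis1 with more than 1 start, so that 4 of 9 member windows had it. Over all 33469 promoter windows of the same length the share was 3.81%. The CCAAT box stood in 5 of the 9 member windows, against 37.5% of all, and in the Dnm1l window it lay after the start. The hypoxia response core in the form ACGTG stood in 3 of the 9, in Oma1, Opa1 and Yme1l1, against 19.3% of all. The Mfn2 promoter was not matched. A match describes letters in the window and not a bound site.

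Among the 9 genes, Dnm1l rose and Mfn2 fell, and 7 were not called. Across the array 15.5% of probesets were called, 7.61% as higher and 7.87% as lower. All 9 genes were above the background level on all 10 arrays, and of the 10815 probesets above it on at least 5 arrays 29.0% were called. The 2 of 9 called here is a share near these backgrounds, so the count itself is not a result about fission and fusion genes. At an unadjusted p under 0.05 in limma, 3 of the 9 were higher and 1 lower, against 26.7% of all probesets in either direction. Of the 10815 probesets above background on at least 5 arrays, 2526 were higher and 2333 lower at that level. The share among the 9 genes is near this one. Without arrays 10 and 4, 3 of the 9 were called against 19.9% of all, and with the fit limited to probesets above background on at least 5 arrays, 4 of the 9 against 35.4%. The differences were positive for 8 of the 9, where 12448 of all 23188 probesets had a positive difference. Mief1, counted among the 8, turned sign without ShCtrl array 4. The differences ran from -0.34 (Mfn2) to 0.66 (Dnm1l), with a median of 0.24, where the median over all probesets was 0.024. In 4 genes (Dnm1l, Mfn1, Yme1l1 and Mfn2) the groups did not overlap, against 12.9% of all probesets and 24.6% of those above background on at least 5 arrays.

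**Figure D1:**
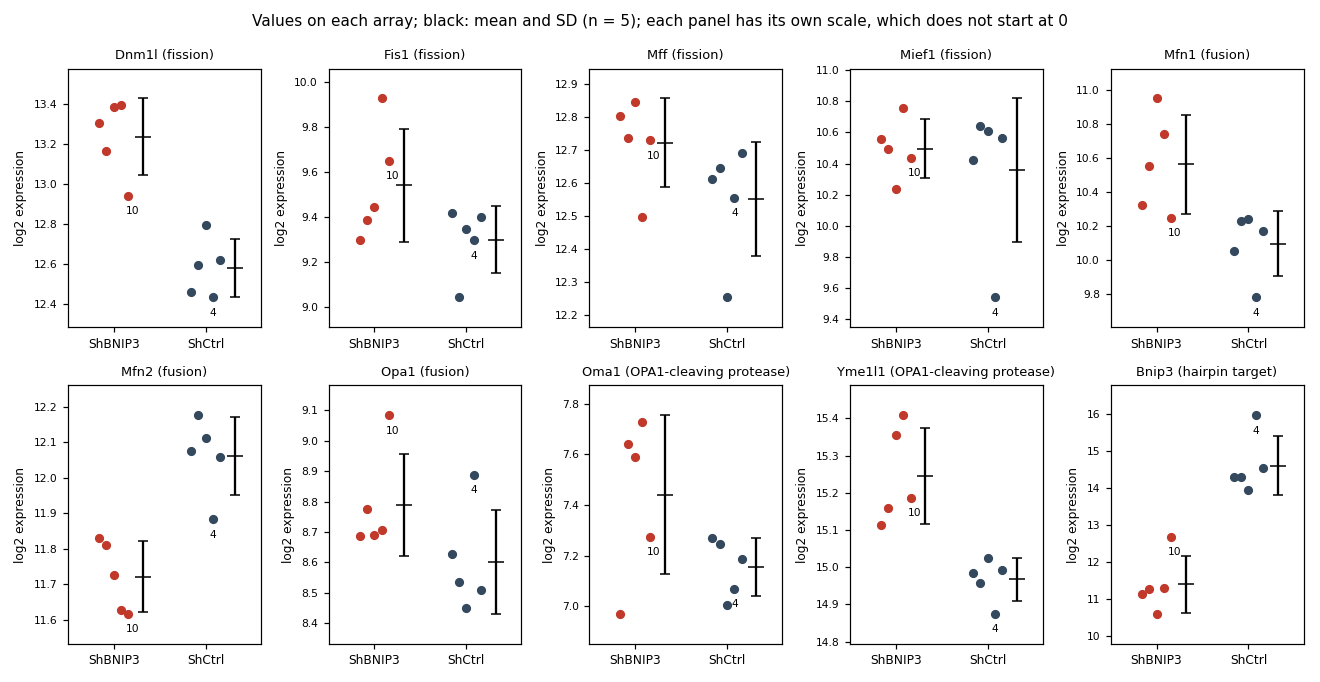
Log2 expression of the 9 genes and of Bnip3 on each array (vertical axes, a separate scale in each panel), with ShBNIP3 in red and ShCtrl in dark blue, 1 point per array and the mean and SD (n = 5) in black; arrays 10 and 4 are numbered. Dnm1l, Mfn1 and Yme1l1 sit higher and Mfn2 lower on all ShBNIP3 arrays, while Fis1, Mff, Mief1, Opa1 and Oma1 overlap.

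Dnm1l, which encodes the fission GTPase DRP1, was 13.31, 13.17, 13.39, 13.40 and 12.94 on ShBNIP3 arrays 6 to 10, against 12.46, 12.60, 12.79, 12.43 and 12.62 on ShCtrl arrays 1 to 5. The lowest ShBNIP3 array, number 10, was still 0.15 above the highest ShCtrl array, number 3. Means were 13.24 ± 0.19 in ShBNIP3 and 12.58 ± 0.15 in ShCtrl (SD, n = 5 each). The log2 difference was 0.66 (SE 0.13, 95% interval 0.38 to 0.93, limma adjusted p = 0.0035), which is 1.58-fold. An exact permutation test (two-sided) of the means gave p = 0.0079, the least that 5 against 5 arrays allow. Any gene without overlap between the groups reaches that value, so it adds nothing to the separation of the arrays. Of all probesets, 4.64% had a positive difference at least as large. The rise was 0.70 without arrays 10 and 4 (limma adjusted p = 0.0017).

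The receptors that bring DRP1 to the outer membrane were not called. Mff, mitochondrial fission factor, was 12.72 ± 0.13 in ShBNIP3 and 12.55 ± 0.17 in ShCtrl (SD, n = 5 each), a difference of 0.17 (95% interval -0.095 to 0.43, limma adjusted p = 0.43). Both groups had a single low array, number 9 in ShBNIP3 (12.50) and number 3 in ShCtrl (12.25). Fis1, the tail-anchored fission adaptor, was 9.30, 9.38, 9.44, 9.93 and 9.65 on ShBNIP3 arrays 6 to 10, against 9.42, 9.04, 9.34, 9.29 and 9.40 on ShCtrl arrays 1 to 5. Here only ShBNIP3 arrays 8, 9 and 10 lay above every ShCtrl array, and the difference was 0.24 (95% interval -0.062 to 0.55, limma adjusted p = 0.31). The 95% interval of Dnm1l, 0.38 to 0.93, overlaps both of these intervals. The differences between the genes were not tested.

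Mief1 encodes MiD51, an outer membrane receptor that binds and gathers DRP1. It was 10.56, 10.49, 10.23, 10.76 and 10.44 on ShBNIP3 arrays 6 to 10, against 10.43, 10.64, 10.61, 9.54 and 10.57 on ShCtrl arrays 1 to 5. ShCtrl array 4 lay 1.02 below the mean of the other ShCtrl arrays, and the other values of both groups were mixed. The difference was 0.14 (95% interval -0.30 to 0.57, limma adjusted p = 0.74) with all arrays, and its sign turned without array 4, to -0.065 (limma adjusted p = 0.81). No direction is therefore given for Mief1.

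Of the mitofusins Mfn2 fell, while Mfn1 was higher without passing the test. Mfn2, which also tethers mitochondria to the endoplasmic reticulum, was 11.83, 11.81, 11.73, 11.63 and 11.62 on ShBNIP3 arrays 6 to 10, against 12.08, 12.18, 12.11, 11.88 and 12.06 on ShCtrl arrays 1 to 5. Every ShBNIP3 array was lower than every ShCtrl array, by a margin of 0.054 between the nearest arrays, ShBNIP3 6 and ShCtrl 4. Means were 11.72 ± 0.10 in ShBNIP3 and 12.06 ± 0.11 in ShCtrl (SD, n = 5 each). The difference was -0.34 (SE 0.11, 95% interval -0.57 to -0.11), 1.27-fold lower, with a limma adjusted p of 0.0499. The two-sided exact permutation p was 0.0079, which any gene without overlap between the groups would reach and which therefore adds nothing to the separation of the arrays. The call rests on the full set of arrays: leaving out any single array other than ShCtrl array 4 put the limma adjusted p over the threshold, at 0.059 to 0.117, with differences of -0.31 to -0.37. Without ShCtrl array 4 it was 0.029, and without arrays 10 and 4 it was 0.042 with a difference of -0.36.

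Mfn1, the mitofusin with the higher GTPase activity, was 10.32, 10.55, 10.95, 10.74 and 10.25 on ShBNIP3 arrays 6 to 10, against 10.05, 10.23, 10.24, 9.78 and 10.17 on ShCtrl arrays 1 to 5. The groups did not overlap, but ShBNIP3 array 10 lay only 0.0059 above ShCtrl array 3. The difference was 0.47 (SE 0.16, 95% interval 0.13 to 0.80), 1.38-fold, with a limma adjusted p of 0.061, so Mfn1 did not pass. Without ShBNIP3 array 10 it was 0.55 (limma adjusted p = 0.031), and without arrays 10 and 4 it was 0.47 (limma adjusted p = 0.041). As a description that only adds up both differences, with no test, Mfn1 minus Mfn2 within each array averaged -1.16 ± 0.31 in ShBNIP3 and -1.97 ± 0.10 in ShCtrl (SD, n = 5 each).

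Opa1, the inner membrane fusion GTPase, was 8.69, 8.78, 8.69, 8.71 and 9.08 on ShBNIP3 arrays 6 to 10, against 8.63, 8.54, 8.45, 8.89 and 8.51 on ShCtrl arrays 1 to 5. In each group a single array was high, ShBNIP3 array 10 by 0.37 and ShCtrl array 4 by 0.36 over the others, and these are also the arrays with the highest Bnip3 of their group. All other ShBNIP3 arrays lay above all other ShCtrl arrays. The difference was 0.19 (95% interval -0.088 to 0.46, limma adjusted p = 0.40), and 0.18 without arrays 10 and 4 (limma adjusted p = 0.29).

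The proteases that cut OPA1 were both higher on average and were not called. Yme1l1, the ATP-dependent i-AAA protease, was 15.11, 15.16, 15.36, 15.41 and 15.19 on ShBNIP3 arrays 6 to 10, against 14.98, 14.96, 15.03, 14.87 and 14.99 on ShCtrl arrays 1 to 5. The groups did not overlap, with 0.087 between the nearest arrays. Its difference was 0.28 (SE 0.11, 95% interval 0.047 to 0.51, limma adjusted p = 0.11). Oma1, a zinc metalloprotease that is activated by mitochondrial stress, was 6.97 to 7.73 in ShBNIP3 (median 7.59) and 7.01 to 7.27 in ShCtrl (median 7.19). These values lie near the background level of the arrays, 6.50 to 6.78, where folds understate a change. ShBNIP3 array 6 was the lowest of all 10 arrays and arrays 7, 8, 9 and 10 were above every ShCtrl array, with a difference of 0.29 (95% interval -0.042 to 0.61, limma adjusted p = 0.26).

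**Figure D2:**
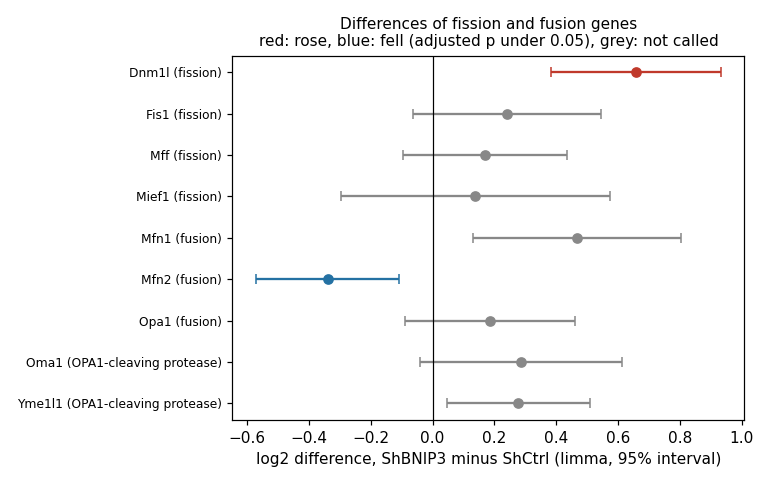
Log2 difference between ShBNIP3 and ShCtrl (horizontal axis) with its 95% interval from limma for each of the 9 genes; red marks the gene that rose, blue the gene that fell and grey those not called. Dnm1l is the farthest to the right at 0.66 and Mfn2 alone lies left of 0, at -0.34.

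The arrays that stood apart carried part of the spread within groups. On ShCtrl array 4, where Bnip3 was highest, Dnm1l, Mfn1, Mfn2, Mief1 and Yme1l1 were at the lowest and Opa1 at the highest value of their group. On ShBNIP3 array 10, the ShBNIP3 array with the highest Bnip3, Dnm1l, Mfn1 and Mfn2 were at the lowest and Opa1 again at the highest value. Dnm1l lay 0.18 and 0.37 under the rest of its group on arrays 4 and 10, and Mfn1 0.39 under it on both. At 5 arrays per group no correlation with Bnip3 was computed within groups, and the part of these arrays was not tested beyond the values without them. For the members not yet given in that way, the differences without arrays 10 and 4 were 0.21 for Fis1, 0.17 for Mff, 0.31 for Oma1 and 0.27 for Yme1l1, none of them called (limma adjusted p = 0.41, 0.47, 0.25 and 0.14).

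By their profile over the 10 arrays, each gene centred on its own mean, the 3 genes nearest to Dnm1l among 7020 named genes above background on all arrays were Myef2, Tmem175 and Ola1. Their root mean square distances to Dnm1l were 0.071, 0.081 and 0.084 on the log2 scale, where the median over the candidates was 0.42. Myef2, which encodes a repressor of the myelin basic protein gene, averaged 11.07 ± 0.19 in ShBNIP3 and 10.33 ± 0.10 in ShCtrl (SD, n = 5 each). Tmem175, a lysosomal ion channel, averaged 10.92 ± 0.24 in ShBNIP3 and 10.30 ± 0.08 in ShCtrl, and Ola1, an Obg-like ATPase, averaged 13.89 ± 0.21 in ShBNIP3 and 13.27 ± 0.14 in ShCtrl (SD, n = 5 each). The profile used for this choice holds the group difference of Dnm1l, so genes chosen by it are higher in ShBNIP3 by construction, and no test of them is given.

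Around the 9 genes stood 5 lists of genes that act with them, of which 64 of 79 were measured, 8 rose and 6 fell. The share called, 14 of 64, compares with 15.5% of all probesets and 29.0% of those above background on at least 5 arrays. The list medians lay between -0.045 (regulators) and 0.16 (inner membrane).

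The largest change of these lists was a fall of Parl, the rhomboid protease of the inner membrane that cuts PINK1 and PGAM5. It was 8.38, 8.51, 8.37, 8.53 and 8.77 on ShBNIP3 arrays 6 to 10, against 10.68, 10.56, 10.94, 9.91 and 10.60 on ShCtrl arrays 1 to 5. All ShBNIP3 arrays were lower by at least 1.14, and ShCtrl array 4 was the nearest. The log2 difference of Parl was -2.03 (SE 0.17, limma adjusted p = 1.1e-05), which left 24.5% of the ShCtrl level, and -2.25 without arrays 10 and 4. The inner membrane list also covered cristae and OPA1 processing and held some outer membrane partners. Of its 19 measured genes, 5 rose and 2 fell. Across the array 15.5% of probesets were called, and 29.0% of those above background on at least 5 arrays. The list was not tested as a set.

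The prohibitins Phb1 and Phb2, partners in the same inner membrane ring complex that holds OPA1-cutting proteases in check, went opposite ways. Phb2 averaged 11.26 ± 0.13 in ShBNIP3 and 12.24 ± 0.08 in ShCtrl (SD, n = 5 each), and fell by 0.98 (SE 0.11, limma adjusted p = 7.8e-05). Phb1 averaged 12.07 ± 0.10 in ShBNIP3 and 11.53 ± 0.14 in ShCtrl (SD, n = 5 each), and rose by 0.54 (SE 0.11, limma adjusted p = 0.0056). In neither gene did the groups overlap. Spg7, the paraplegin subunit of the m-AAA protease, rose by 0.85 (SE 0.14, limma adjusted p = 0.0010), with ShCtrl values of 6.51 to 7.05 that lie near background. Htra2, a protease of the intermembrane space, and Immt, the mitofilin subunit of the cristae junction complex MICOS, rose by 0.53 and 0.49 (limma adjusted p = 0.040 and 0.034), but the groups overlapped in both genes. Leaving out arrays singly put Htra2 over the threshold in 7 of 10 cases and Immt in 6 of 10, with adjusted p-values up to 0.098 and 0.074.

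Genes that assist fusion or act at the outer membrane changed in both directions, 2 of 8 up and 1 down. The share called was 15.5% of all probesets and 29.0% of those above background on at least 5 arrays. Mtch2, an outer membrane protein insertase linked to fusion, was 15.74 to 15.91 in ShBNIP3 and 14.98 to 15.26 in ShCtrl and rose 1.62-fold (log2 0.69, SE 0.11, limma adjusted p = 0.00073). Msto1, a cytosolic protein required for fusion in human cells, was 7.20 to 7.84 in ShBNIP3 and 8.02 to 8.89 in ShCtrl and fell by 0.98 (SE 0.18, limma adjusted p = 0.0024). Miga2, an outer membrane protein that favours fusion, rose by 0.57 (limma adjusted p = 0.031, and 0.057 without arrays 10 and 4), with overlapping groups and ShCtrl values of 5.98 to 6.90 around background. Its adjusted p was over the threshold in 7 of 10 cases with a single array left out, up to 0.078.

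Of 9 measured fission accessory genes, 1 rose and 1 fell. Called were 15.5% of all probesets and 29.0% of those above background on at least 5 arrays. Arl6ip1, an ER-shaping membrane protein, was 13.17 to 13.42 in ShBNIP3 and 12.44 to 12.83 in ShCtrl and rose by 0.57 (SE 0.11, limma adjusted p = 0.0046). Dnm2, a dynamin of endocytosis that has been placed at fission sites, was 12.52 to 12.88 in ShBNIP3 and 12.89 to 13.32 in ShCtrl and fell by 0.44 (SE 0.12, limma adjusted p = 0.027). Leaving out arrays singly put Dnm2 over the threshold in 6 of 10 cases, with an adjusted p up to 0.072. Dnm2 and Dnm1l, relatives in the dynamin family, thus went opposite ways.

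The list of regulators of DRP1 or the mitofusins held mainly kinases, phosphatases and ligases, with a few other proteins. Of its 19 measured genes, 0 rose and 2 fell in limma, where 15.5% of all probesets were called. At an unadjusted p under 0.05 in limma, 2 were higher and 4 lower, a level that 26.7% of all probesets met. Of the 10815 probesets above background on at least 5 arrays, 2526 were higher and 2333 lower at that level. Mapk14, the stress kinase p38 alpha, was 8.55 to 9.62 in ShBNIP3 and 9.86 to 10.30 in ShCtrl and fell by 1.02 (SE 0.20, limma adjusted p = 0.0040). Cdk1, the mitotic kinase that phosphorylates DRP1, was 7.07 to 7.79 in ShBNIP3 and 8.02 to 8.93 in ShCtrl and fell by 0.97 (SE 0.20, limma adjusted p = 0.0063). Without arrays 10 and 4, 1 of these regulators rose and 4 fell, where 19.9% of all probesets were called. Of 9 measured genes of mitochondrial transport along the cytoskeleton, 0 were called in limma with all arrays, 1 was higher at an unadjusted p under 0.05, and without arrays 10 and 4, 1 rose and 1 fell.

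**Figure D3:**
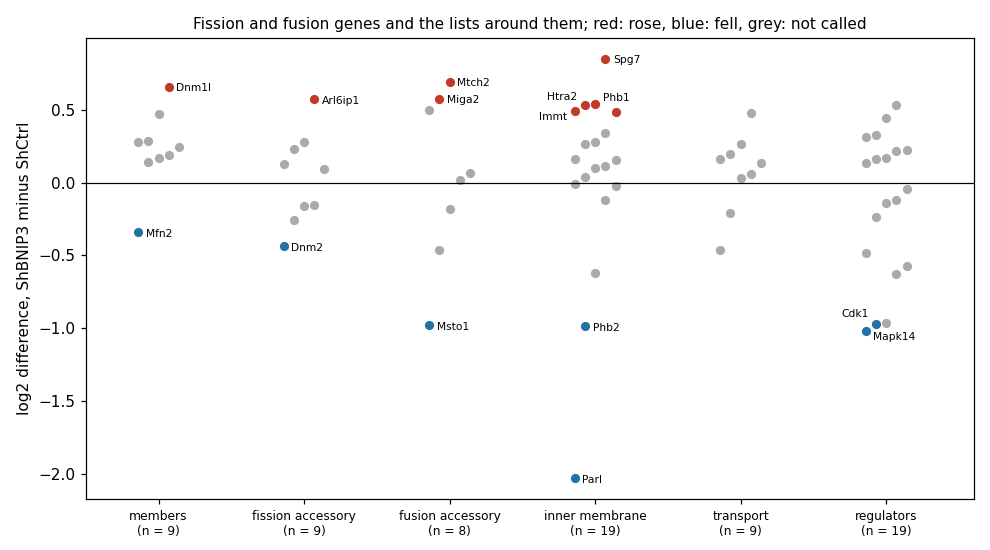
Log2 difference between ShBNIP3 and ShCtrl (vertical axis) of the 9 fission and fusion genes (members, left) and of the measured genes of the 5 lists around them, 1 point per gene, red for genes that rose, blue for genes that fell and grey for those not called. Parl, at -2.03, is the lowest point, and every point of the 9 members lies between -0.34 and 0.66.

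Of the 9 genes only Dnm1l kept its call in all 15 alternative analyses, which changed the variance model, the normalization, the array weights, the filter or the arrays included. Mfn2 was called in 6 of the 15, Mfn1 in 5 and Yme1l1 in 3, each with the same direction in all 15. Fis1, Mff, Mief1, Opa1 and Oma1 were called in 0 of the 15 limma fits.

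**Figure D4:**
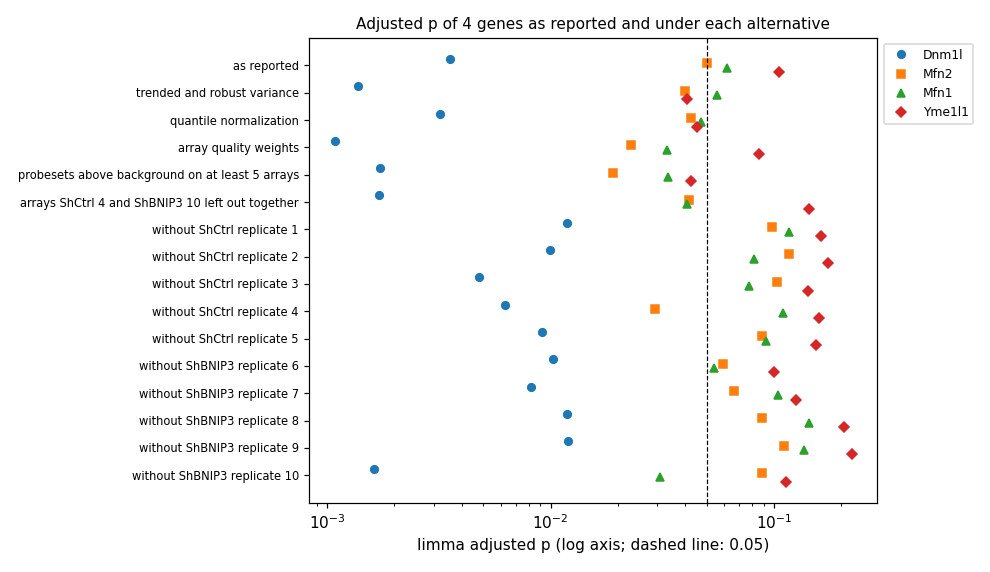
Limma adjusted p (horizontal log axis, dashed line at 0.05) of Dnm1l, Mfn2, Mfn1 and Yme1l1 as reported (top) and under each of the 15 alternatives. Dnm1l lies left of the line throughout, at 0.0011 to 0.012, and the other 3 genes fall on both sides of it.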

How the data were processed

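RNA of 10 samples was measured on rat whole-transcript arrays after GeneChip WT Plus labelling. Per the labels, the authors normalized the signals by sst-rma, and the table they deposited holds 1 log2 value for each probeset on each array; the Transcriptome Analysis Console is named in the submitters' processing notes, with its version not given in the sources used here. Groups were taken from the sample titles. The protocol text also speaks of mouse disc tissue, which does not match these samples and was not used. Array medians lay between 6.18 and 6.22. For arrays, their number limits the precision.

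Of 24834 probesets, 1646 controls were left out, and the remaining 23188 entered 1 fit in R 4.3.3 (limma 3.58.1, functions lmFit and eBayes), with p-values adjusted by Benjamini-Hochberg and called under 0.05. The fit was tested on simulated data. Exact two-sided permutation tests of group means used scipy 1.17.1. Gene symbols came from the platform annotation, matched to RefSeq GRCr8. Probesets annotated with several symbols stayed in the fit but were not assigned to a gene. Each array's background level was the 95th percentile of its 23 antigenomic probesets. The genes and lists, and arrays 4 and 10 as an alternative, were chosen with earlier results of these data known. Named were all members with a probeset, up to 6 called genes per list by size of change, Bnip3, and the 3 genes nearest to the called member with the largest change. Of 14 called list genes, Micos10, the smallest change of 7 in its list, is outside that rule. Alternatives were trended and robust variance, quantile normalization, array weights, a filter on dim probesets, and arrays left out singly or as a pair.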

Additional observations from a re-analysis of the deposited data

Results flagged for a closer look

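In 3 of 46 groups of 5 arrays checked, a single array lay far from the others by Dixon's criterion, which chance meets in about 1 in 20 groups. Mief1 was 9.54 on ShCtrl array 4, where the other ShCtrl arrays lay between 10.43 and 10.64. Opa1 was 9.08 on ShBNIP3 array 10, against 8.69 to 8.78 on the other ShBNIP3 arrays. Immt was 13.04 on ShBNIP3 array 10, against 13.31 to 13.38 on the other ShBNIP3 arrays. These are the 2 arrays that correlated least with their groups, and the cause was not tested.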

How the results depend on the processing

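The number of the 9 genes called was 2 as reported, 4 after quantile normalization and 1 to 2 with 1 array left out in turn. It was 4 among probesets above background on at least 5 arrays (fewer probesets tested). The 4 were Dnm1l, Mfn1, Mfn2 and Yme1l1 in both cases. Over the whole array 3590 of 23188 probesets (15.5%) were called as reported and 3594 after quantile normalization. With 1 array left out in turn 2746 to 3960 were called. Among probesets above background on at least 5 arrays it was 3826 of 10815 (35.4%). The Mief1 difference turned sign, to -0.051 without arrays 10 and 4 and over a range of -0.065 to 0.21 with 1 array left out, and the cause was not tested beyond its low value on ShCtrl array 4. Over all 15 alternatives the count of list genes called was 10 to 21 and that of all probesets called 2746 to 4622. The Bnip3 difference was -3.53 to -2.87. The count of the 9 genes without overlap was 4 to 5, where 12.9% of all probesets had none as reported. Leaving arrays out cannot lower that count, and the variance model, weights and filter keep the values. Only quantile normalization, with 4, could have lowered it. No paired analysis was possible because the groups share no replicate number. Weak signal limits Oma1, Spg7 and Miga2, which lie near background.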
